A study of Homo sapiens with 24 samples.

Results

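Small cell lung cancer lines exposed to lurbinectedin differed in which genes they expressed at all, and the genes read in some lines but nearly silent in others are described here. The study used 4 established lines: the submitters call H187 and H209 ISL1 high, and SHP-77 and H82 ISL1 low. Each line had received 0.1 nM lurbinectedin or the DMSO vehicle for 24 h, in 3 biological replicates per arm, and ribosomal RNA-depleted total RNA had been sequenced. The class table compared the 12 lurbinectedin libraries, and a further table for each line compared its own lurbinectedin and DMSO libraries. A gene missing from a line's own table had too few counts in that line to be listed, so on/off genes were taken as the 3055 of 14463 genes of the class table (21.1%) that were absent from the table of at least 1 line. The other 11408 genes were listed for all 4 lines and serve as the comparison. Each class consists of 2 lines, so a difference between the classes cannot be told apart from a difference between these particular lines. Because the RNA came from bulk cultures, fewer cells expressing a gene and less RNA per cell cannot be told apart either.

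Small cell lung cancer is a neuroendocrine carcinoma whose lines differ in the transcription factors that dominate them, among them NEUROD1. ISL1 is a LIM-homeodomain transcription factor that acts in motor neurons, pancreatic islets and other neuroendocrine cells. Lurbinectedin attaches to guanine bases in the DNA minor groove, stalls transcribing RNA polymerase II and leads to DNA breaks.

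Among the on/off genes with the widest gaps were SOX1, TMEM30B and SLFN11, listed only for the ISL1-high lines, and ECEL1, listed only for the ISL1-low lines. The 250 bases before the transcription start of these 4 genes are shown because each gene is at or near 0 counts on one side and at 37.1 CPM or more (counts scaled to library size) in every library on the other. Sequences are from RefSeq on GRCh38.p14, 5′ to 3′ on the strand of the gene, with the E-box CACCTG or its reverse complement CAGGTG in capitals. The windows are chr13:112066899-112067148 for SOX1 on the plus strand, chr14:61281339-61281588 for TMEM30B on the minus strand, chr17:35373622-35373871 for SLFN11 on the minus strand and chr2:232487835-232488084 for ECEL1 on the minus strand.
SOX1: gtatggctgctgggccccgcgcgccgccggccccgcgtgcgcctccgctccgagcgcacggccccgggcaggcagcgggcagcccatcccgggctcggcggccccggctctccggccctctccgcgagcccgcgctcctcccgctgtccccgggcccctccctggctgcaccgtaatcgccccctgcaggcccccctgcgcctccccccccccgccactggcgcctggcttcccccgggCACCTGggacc
TMEM30B: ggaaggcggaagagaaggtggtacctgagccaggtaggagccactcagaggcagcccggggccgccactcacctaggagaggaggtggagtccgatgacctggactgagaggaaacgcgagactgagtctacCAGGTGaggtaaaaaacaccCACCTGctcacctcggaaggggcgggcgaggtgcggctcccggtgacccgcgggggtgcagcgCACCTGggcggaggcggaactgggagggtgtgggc
SLFN11: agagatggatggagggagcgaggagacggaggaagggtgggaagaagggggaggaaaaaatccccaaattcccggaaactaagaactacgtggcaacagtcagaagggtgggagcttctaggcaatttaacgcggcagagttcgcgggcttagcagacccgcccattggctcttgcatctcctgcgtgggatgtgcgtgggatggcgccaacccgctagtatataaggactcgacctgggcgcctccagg
ECEL1: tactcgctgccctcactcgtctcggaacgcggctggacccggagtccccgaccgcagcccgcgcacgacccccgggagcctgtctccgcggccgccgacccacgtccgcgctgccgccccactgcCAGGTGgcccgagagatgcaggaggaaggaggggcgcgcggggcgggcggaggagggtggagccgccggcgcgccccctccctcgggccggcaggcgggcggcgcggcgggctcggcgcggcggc
Counted to its first base, the motif began 11 bases before the start of SOX1, at 118, 98 and 35 bases before the start of TMEM30B, and at 125 bases before that of ECEL1. Of the 24 leading genes of the class patterns, 12 had a window in the table and 4 of the 12 windows held CACCTG, so the windows shown hold it more often than those not shown, among them QPRT, CALD1 and CPNE8. The SLFN11 window held none of the motifs searched on both strands, namely CACCTG, the homeodomain-type CTAATG, and the other E-boxes CACGTG and, lastly, CAGCTG. The RefSeq promoter table matched 2017 of the 3055 on/off genes and 10736 of the 14463 genes of the class table. CACCTG lay in 19.8% of the on/off promoters, in 23.1% of the 212 matched promoters of genes listed only for H187 and H209, and in 18.6% of the 118 matched promoters of genes listed only for H82 and SHP-77. The share was 15.1% among genes listed for all 4 lines and 17.5% among all 27305 symbols of the promoter table. Promoters that were CpG-rich, here defined as a GC content of at least 55% with an observed over expected CpG ratio of at least 0.65, made up 49.6% of the on/off set against 72.7% of the genes listed for all lines. The share was 52.4% for the genes of H187 and H209 alone and 33.1% for those of H82 and SHP-77 alone. These shares describe letters in a fixed window and were not tested.

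The on/off genes fell into every combination of lines, and the 2 patterns that follow the ISL1 classes were not the most frequent. Exactly 344 genes were listed for H187 and H209 alone and 176 for H82 and SHP-77 alone, together 520 of the 3055. A further 743 genes were listed for 1 line of each class: 289 for H209 and SHP-77, 164 for H209 and H82, 160 for H187 and SHP-77 and 130 for H187 and H82. Genes missing from a single line were the largest group, with 770 not listed for H82, 438 not listed for SHP-77, 344 not listed for H187 and 222 not listed for H209. Every gene of the class table reached 10 counts in at least 6 of 12 libraries, and 17 of the 2043 genes listed for 1 line (0.832%) and 1263 of the 1557 listed for a pair of lines (81.1%) were in it. The patterns therefore describe genes read in at least a pair of lines, and genes specific to 1 line are nearly absent from them.

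**Figure D1:**
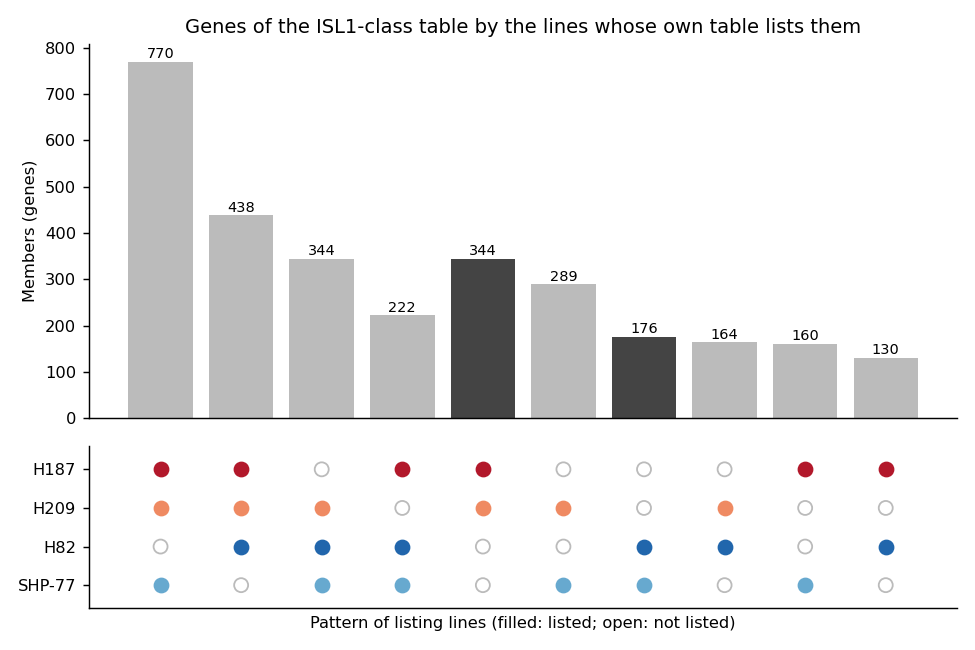
Number of on/off genes (bars, in genes) in each pattern of listing lines, where filled circles below a bar mark the lines that list the gene. The dark bars are the patterns that follow the ISL1 classes, with 344 genes for H187 and H209 and 176 for H82 and SHP-77, and the tallest bar, 770 genes, is the set missing from H82 alone. The 18 genes listed for 1 line or for none are not drawn.

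Where a gene was not listed, its level was low in every case. Levels are given as CPM, a gene's count scaled to the size of its library with TMM factors, and each is the mean of 3 lurbinectedin libraries unless libraries are named. The median level of unlisted genes was 0.153, 0.118, 0.104 and 0.0698 CPM in H187, H209, H82 and SHP-77. All 3 libraries were at 0 counts for 113, 99, 272 and 233 of them, where a count of 0 over the line allows up to 0.0335, 0.0334, 0.0347 and 0.0333 CPM (3 counts, counting error only). At the edge of the rule, the highest unlisted level was 0.772 CPM for ZNF658 in H187 and 1.29 CPM for COL1A1 in SHP-77, where 84 of its 107 counts came from 1 library, while the lowest listed level was 0.199 CPM for FSTL5 in H209. Listing is therefore not a clean cut, and 346 of 3054 genes had a gap under 2-fold between the lowest listing line and the highest unlisted line. The median gap was 13.7-fold, and 1695 genes had a gap of at least 10-fold. On/off genes were also weaker than other genes where they were listed: their median was 3.18, 2.87, 3.82 and 3.33 CPM in the same order, against 37.0 to 38.1 CPM for genes listed for all lines. They carried 3.37% to 4.11% of the counts of each library. By the biotypes of the reference names, 78.4% were protein coding and 12.3% were long non-coding RNAs, against 91.8% and 3.66% of the genes listed for all lines.

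The class difference, the mean of H187 and H209 minus the mean of H82 and SHP-77 on the log2 scale, was fitted with edgeR's quasi-likelihood test on all 14463 genes with Benjamini-Hochberg adjustment. The fit has 1 mean per line, so its error is the spread among replicate libraries of a line. It does not measure the spread between the lines of a class, and a call does not extend to other lines. Among the on/off genes 1662 (54.4%) were past the adjusted threshold of 0.05 with higher levels in the ISL1-high lines, where the background over all genes was 47.0%. Another 902 (29.5%) were lower, against a background of 41.9%, and in either direction the share was 83.9% against 88.9%. Because low counts in a line are what put a gene in the set, nothing is read from these counts. Among the 743 genes listed for 1 line of each class, 199 were higher and 192 were lower.

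Genes listed only for H187 and H209 had a median gap of 13.4-fold to the ISL1-low lines, and 61 of the 344 exceeded 100-fold. SOX1, a transcription factor of neural progenitors, gave 201, 203 and 192 CPM in the H187 libraries and 330, 324 and 324 CPM in the H209 libraries, and a single count in all 6 ISL1-low libraries together. TMEM30B, a subunit of phospholipid flippases, gave 233, 241 and 227 CPM in H187 and 98.8, 91.4 and 97.8 CPM in H209, with at most 0.171 CPM in any ISL1-low library. SLFN11, which binds stalled replication forks and sensitises cells to DNA-damaging drugs, gave 92.3, 94.5 and 97.1 CPM in H187 and 166, 162 and 164 CPM in H209. SLFN11 had 0 counts in all 6 ISL1-low libraries, so the lower of its listing lines was at least 2730-fold higher than the bound. The listing rule chose these genes, so the separation of their ISL1-high and ISL1-low libraries is a description.

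Epithelial genes stood among the strongest of this group. CDH1, which encodes E-cadherin, gave 109, 108 and 106 CPM in H187 and 344, 308 and 345 CPM in H209, against 0.0362, 0.0338 and 0.0342 CPM in H82 and 0 counts in SHP-77. The CDH1 ratio of 3102 rested on 3 counts in H82 and has a 95% counting interval of 1062 to 15040. ESRP1, a splicing factor of epithelial cells, reached 226, 226 and 234 CPM in H187 and 406, 405 and 405 CPM in H209, against at most 0.445 CPM in H82 and 0.113 CPM in SHP-77. KRT19, a simple-epithelium keratin, was at 56.5, 62.6 and 59.7 CPM in H187 and 158, 159 and 155 CPM in H209, 299-fold above the highest ISL1-low line. Of the 52 epithelial genes in the class table, 38 were on/off genes, of which 9 were listed only for H187 and H209, none only for H82 and SHP-77, and 24 for 3 lines. By line, 30 of the 38 were listed for H187, 34 for H209, 26 for SHP-77 and 10 for H82. The list as a whole therefore set H82 apart more than it followed the ISL1 classes.

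Other genes listed only for the ISL1-high lines included the metallothioneins MT1E (16.9 CPM in H187 and 25.7 in H209) and MT1F (7.89 and 32.4 CPM), and the hormone gene GHRH (12.4 and 16.3 CPM). MT1E had 0 counts in both ISL1-low lines, a difference of at least 487-fold, while MT1F had 0.451 CPM in H82 and a gap of 17.5-fold. SLFN5 and SLFN13, neighbours of SLFN11 within chr17:35243036-35448837 and members of the same family, had the same pattern: SLFN5 was at 47.6 CPM in H187 and 45.3 in H209, and SLFN13 was at 3.12 and 41.4 CPM.

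**Figure D2:**
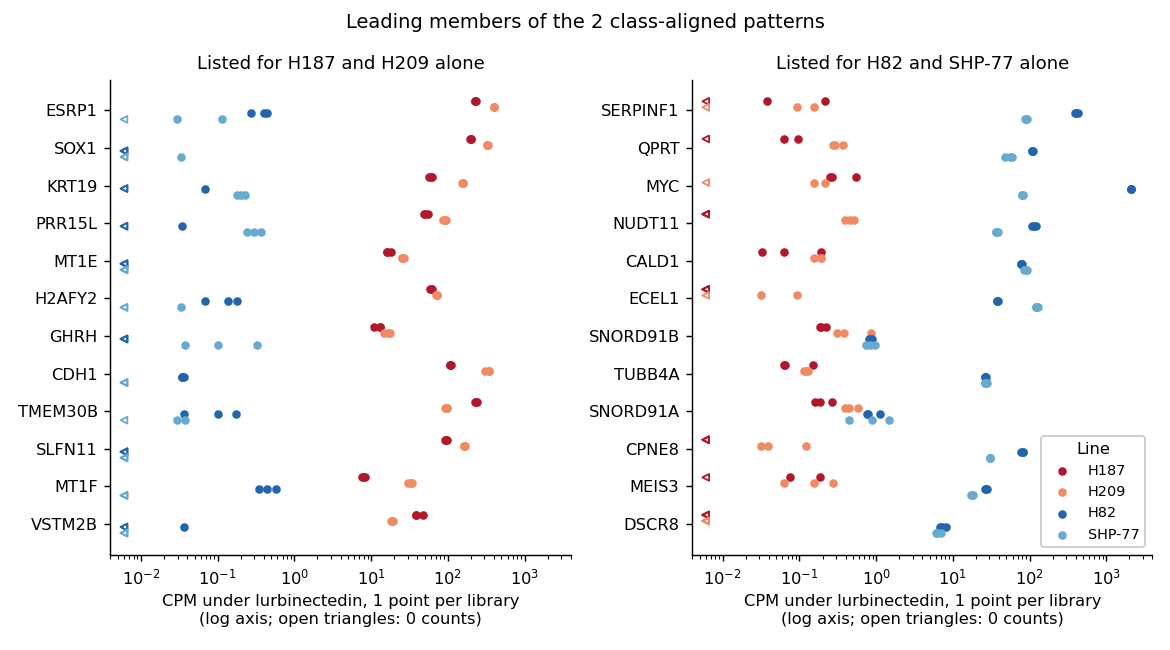
CPM under lurbinectedin (log axis, 1 point per library, open triangles for 0 counts) of the 12 genes with the highest level per kb in the lower listing line, for genes listed only for H187 and H209 (left) and only for H82 and SHP-77 (right). ISL1-high and ISL1-low libraries are separated by 10-fold or more for every gene of the left panel, and SNORD91A and SNORD91B in the right panel show that a pattern can also rest on a narrow gap.

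Genes listed only for H82 and SHP-77 had a median gap of 14.7-fold, and 30 of the 176 exceeded 100-fold. SERPINF1, a secreted serpin known as pigment epithelium-derived factor, gave 402, 426 and 394 CPM in H82 and 92.3, 90 and 88.1 CPM in SHP-77, 1008-fold above the ISL1-high lines. MYC reached 2106 ± 19.2 CPM in H82 (SD, n = 3) and 80.3 ± 1.33 CPM in SHP-77, and lay at 0.354 CPM in H187 and 0.123 CPM in H209. ECEL1, a neuronal endopeptidase-like gene, gave 37.8, 37.1 and 39.1 CPM in H82 and 121, 121 and 129 CPM in SHP-77, with 0 counts in H187. CALD1, which encodes the actin-binding protein caldesmon, was at 77.4 CPM in H82 and 89.1 CPM in SHP-77, 435-fold above the higher ISL1-high line. QPRT, an enzyme of NAD synthesis, was at 109 and 54.1 CPM, and CPNE8, a copine, at 79.8 and 30.6 CPM. In contrast the small nucleolar RNA gene SNORD91B was at 0.845 CPM in H82 and 0.849 CPM in SHP-77 against 0.518 CPM in H209, a gap of 1.61-fold.

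Most HOX genes of the set were missing from a single line. Of the 33 HOX cluster genes in the class table, 30 were on/off genes, and 24 of these were listed for 3 lines. Median class differences and counts on either side are given here and for the lists that follow as descriptions, beside medians of 0.06 over all genes of the class table and 1.02 over all on/off genes on the log2 scale. The shares past the threshold on the ISL1-high side were 47.0% of all genes and 54.4% of on/off genes, and on the ISL1-low side 41.9% and 29.5%. The HOX median was 4.17, or 3.51 with lines at 0 counts set at their bound, with 24 genes past the threshold on the ISL1-high side and 2 on the ISL1-low side. The HOXB cluster formed the longest uninterrupted run of genes with 1 pattern, 11 neighbours in chr17:48133440-48626473 listed for every line except H82. Of these, SKAP1 and the antisense genes HOXB-AS1 and HOXB-AS3 are no HOX genes. HOXB5 was at 101, 43.1, 0 and 101 CPM in H187, H209, H82 and SHP-77, and HOXB2 was at 91.3, 55.4, 0 and 1.64 CPM in the same order. In H82, HOXB7 had 15 counts, or 0.174 CPM, SKAP1 had 3 counts and the other 9 genes of the run had 0. A run of HOXA10, HOXA11 and HOXA13 at chr7:27170591-27200106 was missing from SHP-77 instead, with HOXA10 at 80.3 CPM in H187, 44.5 in H209 and 6.96 in H82. Among 69 other homeobox genes 35 were on/off genes, 16 of them listed for 3 lines, with 24 on the ISL1-high and 7 on the ISL1-low side. The lung and neural factor NKX2-1 was at 394 CPM in H187, 96.8 in H209 and 121 in SHP-77, with a single count in H82. IRX2 was at 68.8, 370 and 4.80 CPM in H187, H209 and H82 and at 0 in SHP-77.

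Lineage factors used to subtype small cell lung cancer did not divide by ISL1 class. ISL1 itself was listed for all 4 lines, with 220.9 ± 4.95 CPM for H187, 163.1 ± 4.53 CPM for H209, 4.17 ± 0.905 CPM for H82 and 0.68 ± 0.179 CPM for SHP-77 (SD, n = 3). NEUROD1 was at 306 CPM in H82, 11.0 in H209, 0.953 in H187 and 0.0349 in SHP-77, so its on and off states crossed the classes. MYCN was at 61.8 CPM in H187 and 5.52 CPM in H82, with 0 counts in H209. In the class table there were 20 such factors and 11 were on/off genes, none of them listed only for the ISL1-high lines and 1 only for the ISL1-low lines. The shared neuroendocrine markers were read throughout: INSM1 was at 490, 869, 16.0 and 751 CPM in H187, H209, H82 and SHP-77, and NCAM1 at 563, 200, 170 and 314 CPM. CHGA and POU2F3, and the blood markers PTPRC, CD3D, MS4A1, LYZ and HBB, were in none of the 5 tables. Among stromal and endothelial markers, COL1A1 reached at most 5.79 CPM, COL1A2 2.80, PECAM1 5.91 and VWF 7.69, and DCN was in no table.

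Interferon-stimulated genes, the antiviral effectors that cells switch on after interferon or cytosolic nucleic acid sensing, were on/off in 25 of 37 cases, against 21.1% of all genes of the class table. Of the 25, 21 were past the threshold on the ISL1-high side and 1 on the ISL1-low side, a description only, since low counts chose the genes. Of the same 25, 8 were listed only for H187 and H209. By line, 22 were listed for H187, 24 for H209, 17 for the ISL1-low line SHP-77 and none for H82. IFIT1, IFIT2 and IFIT3 lay side by side at chr10:89301949-89406487 and were listed for H209 and SHP-77, but in H187 and SHP-77 IFIT2 was at 0.717 and 0.492 CPM and IFIT3 at 0.439 and 0.563 CPM, so these levels had no clear gap. ISG15, a ubiquitin-like modifier, was at 9.96 CPM in H187 and 15.1 CPM in SHP-77 but at 0.224 CPM in H209 and 0.106 CPM in H82. Antigen presentation genes had 8 on/off members of 16, 7 of them on the ISL1-high side. HLA-C was at 19.8, 2.15, 1.11 and 0.296 CPM in H187, H209, H82 and SHP-77, and ERAP2, which trims peptides, was at 56.7 CPM in H187 and under 1 CPM elsewhere. HLA genes are placed at several alternative haplotypes in these tables, so their reads may be divided and their levels are uncertain.

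Adhesion, matrix and signalling genes had members on both sides. Clustered protocadherins, whose combinations mark single neurons, were on/off in 28 of 45 cases, with 20 on the ISL1-high and 5 on the ISL1-low side. By line, 28 of them were listed for H187, 20 for H209, 20 for SHP-77 and 5 for H82. They share long stretches of sequence and overlapping gene models, so their separate counts are uncertain. Mesenchymal genes had 3 on the ISL1-high and 10 on the ISL1-low side of 18 on/off genes and a median class difference of -1.38. Collagens and matrix genes had 16 on each side of 40, receptor tyrosine kinases and ligands 14 on each side of 33, and WNT, hedgehog and BMP genes 17 on each side of 39. KIT, the stem cell factor receptor, was at 297, 43.0, 0.148 and 11.3 CPM in H187, H209, H82 and SHP-77. NOTCH1 was at 60.1 CPM in H187 alone, against 2.17 in H82, 0.497 in H209 and 0.179 in SHP-77. The drug efflux pump gene ABCB1 was at 116 CPM in SHP-77 and 2.36 in H82, against 0.107 in H187 and 0.0129 in H209. DNA repair genes were nearly all listed everywhere: 2 of 44, SLFN11 and MGMT, were on/off genes.

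The patterns that crossed the classes also contained large gaps. UBB, a ubiquitin gene, was at 678 CPM in H187, 683 in H209 and 1494 in SHP-77 but at 0.0815 CPM in H82, an 8381-fold gap. MSN, which encodes the membrane linker moesin, was at 1377 CPM in H82, 436 in SHP-77 and 299 in H209, with 2 counts in H187. TRAP1, a mitochondrial chaperone, was at 75.9 CPM in H187, 461 in H82 and 261 in SHP-77, with 2 counts in H209. FAT1, a giant cadherin, was at 430 CPM in H209 and 906 in SHP-77 and near 0 in H187 and H82, while IGF2BP1, an RNA-binding protein, was at 215 CPM in H187 and 1342 in H82 and near 0 in H209 and SHP-77. CALCA, the calcitonin and CGRP gene, was at 40.5 CPM in H209 and 872 in SHP-77. CDKN1A, which encodes the cell cycle inhibitor p21, was at 115, 93.0 and 131 CPM in H187, H209 and SHP-77 but at 0.269 CPM in H82.

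Some on/off genes were neighbours that shared 1 silent line over a long stretch. In all, 32 runs of at least 3 consecutive genes with the same pattern held 113 genes (3.70% of the set), and 17 of the runs were missing from H82 alone. In H209, 14 consecutive genes of the class table from CETN3 to MCTP1, chr5:90393335-95284575 in hg38 and 4.89 Mb long, had at most 2 counts each, and 11 of them had 0. The same genes were read elsewhere: ADGRV1, an adhesion receptor of sensory hair cells, was at 120, 136 and 109 CPM in H187, H82 and SHP-77, and ARRDC3, an arrestin-domain adaptor, at 163, 46.7 and 55.04 CPM. In H209 the flanking genes MEF2C and TTC37 were at 0.301 and 79.8 CPM. In SHP-77, 8 consecutive genes from TPTE to CHODL, chr21:10521514-18267371 and 7.75 Mb long, had at most 6 counts each, and 6 had 0. CXADR, the coxsackievirus and adenovirus receptor, was at 460, 196 and 155 CPM in H187, H209 and H82, and HSPA13 at 96.5, 107 and 158 CPM. BTG3, placed at several loci in the table and therefore outside this order, had 1 count in SHP-77 and 72.0, 34.0 and 19.6 CPM in the other lines. In H82, 7 genes at chr5:41925252-43067439 had at most 29 counts each, and 4 had 0. These stretches were chosen after their values were seen.

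**Figure D3:**
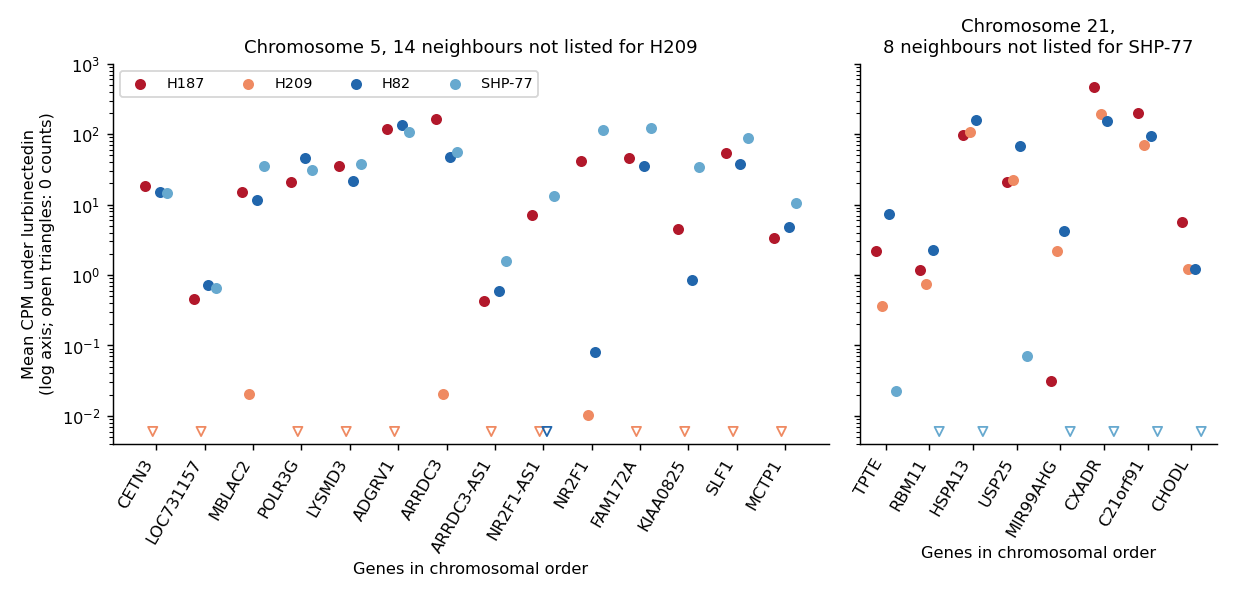
Mean CPM under lurbinectedin (log axis, 1 point per line, open triangles for 0 counts) of consecutive genes in chromosomal order, for the stretch of chromosome 5 not listed for H209 and that of chromosome 21 not listed for SHP-77. The H209 points of the left panel and the SHP-77 points of the right panel lie below 0.1 CPM throughout, while most genes reach 1 to 460 CPM in the other lines.

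Within a class the lines also differed, and this was tested on on/off genes listed for both of its lines. Between H209 and H187, 1233 of 1552 such genes (79.4%) were past the threshold, 653 higher and 580 lower in H209, against 87.0% of all genes. SERTM1 was at 545 CPM in H187 and 0.662 in H209, a difference of -9.67 ± 0.07 (log2 ± SE), and CD200, an immune inhibitory ligand, was at 0.537 and 161 CPM, a difference of 8.22 ± 0.09. The gene of gastrin-releasing peptide, GRP, was at 1.02 CPM in H187 and 194 CPM in H209. Between SHP-77 and H82, 624 of 742 (84.1%) were past the threshold, 319 higher and 305 lower in SHP-77, against 89.6% of all genes. AKR1C3, an aldo-keto reductase, was at 0.703 CPM in H82 and 493 CPM in SHP-77, a difference of 9.44 ± 0.08. KIRREL1, a nephrin-like adhesion protein, was at 196 and 1.09 CPM, a difference of -7.47.

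The pattern closest to ISL1 was described by the Pearson correlation of log2 CPM over the 12 lurbinectedin libraries, which share their line in groups of 3. The 10 genes with the highest value were GALNT3 (0.996), RASAL1, ENPP5, HCN4, KIRREL3, LOC642366, LSR, CCDC122, KDF1 and FOXD3 (0.991). A correlation of at least 0.9 was found for 276 of 3054 on/off genes, 198 of them listed only for H187 and H209. With 4 lines this measure mainly records which lines express a gene.

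Most on/off genes listed for a line were read in both its lurbinectedin and its DMSO libraries. Listing rests on counts in these same libraries, so the shares that follow are partly set by the rule. Genes not listed for a line have no DMSO values here. Above 10 counts in all 6 libraries of the line were 1958 of 2068 listed on/off genes in H187 (94.7%), 2233 of 2353 in H209 (94.9%), 1431 of 1479 in H82 (96.8%) and 1881 of 1965 in SHP-77 (95.7%). Genes above 10 counts in every lurbinectedin library and at or under 10 in every DMSO library included ZNF385C and AMHR2 in H187 and CYSRT1, CHRNE and CNGB3 in H209. FSTL5 in H209 was the one gene with the opposite state. The difference between treatments stayed within 2-fold for 97.7%, 96.3%, 99.8% and 99.6% of the listed on/off genes in H187, H209, H82 and SHP-77. The matching shares over all genes were not counted, so these are not read as particular to on/off genes.

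Smaller changes were frequent in the ISL1-high lines. The lurbinectedin and DMSO libraries of each line were compared with edgeR's quasi-likelihood test over all genes listed for that line. In H187, 204 on/off genes (9.86%) rose and 291 (14.1%) fell, against backgrounds of 12.2% and 12.7%. In H209, 447 (19.0%) rose and 375 (15.9%) fell, against 22.7% and 22.5%. In H82, 34 (2.30%) rose and 32 (2.16%) fell, against 1.55% and 1.38%, and in SHP-77, 31 (1.58%) rose and 97 (4.94%) fell, against 1.98% and 3.21%. The H82 total of 66 depended on single libraries: it was 23, 32 and 137 without DMSO library 1, 2 or 3 and 13, 18 and 21 without lurbinectedin library 1, 2 or 3. DESeq2 called 18 higher and 28 lower in H82, so the balance of directions there also depends on the tool.

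Part of the interferon-stimulated genes rose in the ISL1-high lines. In H187, 9 of 22 listed members rose and none fell, with a median log2 change of 0.25 over the 22, and leaving out single libraries left 8. In H209, 13 of 24 rose and none fell, with a median of 0.34, and leaving out single libraries left 10 to 13 rises and at most 1 fall. In SHP-77, 1 of 17 rose, with a median of 0.04, and that gene, OAS3, lost its call in 5 of the 6 fits that left out a library. Over all genes 12.2% rose and 12.7% fell in H187, 22.7% and 22.5% in H209, and 1.98% and 3.21% in SHP-77. OAS3, a synthase that activates RNase L, went from 15.0, 14.3 and 15.0 CPM in the DMSO libraries of H187 to 26.4, 25.3 and 25.1 CPM under lurbinectedin (0.79 ± 0.06, adjusted p = 7.2e-09 by edgeR). CMPK2, a mitochondrial nucleotide kinase, went from 13.2, 13.4 and 13.0 CPM to 18.4, 16.8 and 16.7 CPM in H187 and from 6.79 ± 0.306 to 8.93 ± 0.469 CPM in H209. SLFN11 rose from 68.6 ± 2.42 to 94.6 ± 2.01 CPM in H187 (0.46 ± 0.04, adjusted p = 1e-07) and from 150.9 ± 6.42 to 174.4 ± 2.18 CPM in H209 (0.21 ± 0.03, adjusted p = 1.3e-06). The arms of SLFN11 did not overlap in either line, and SLFN5 rose by a similar amount in H187 (0.36 ± 0.05) and H209 (0.38 ± 0.05). MX1 and IFIH1 rose in both lines, but MX1 in H187 and IFIH1 in H209 lost their calls in some fits that left out a library (adjusted p of 0.062 to 0.11 for MX1 and 0.0502 to 0.066 for IFIH1 in those fits). These genes were singled out after their values were seen, and whether the response differs between the ISL1-high and ISL1-low lines was not tested.

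Among neuronal adhesion and guidance genes, falls outnumbered rises in H187, H209 and SHP-77. In H187, 16 of 31 listed members fell and none rose, and in H209, 16 of 30 fell and none rose, with a median log2 change of -0.34 in each line. In SHP-77, 10 of 30 fell and 1 rose, and in H82, 5 of 26 fell and 1 rose (2 to 5 falls and up to 3 rises when single libraries were left out). Over all genes 12.7% fell and 12.2% rose in H187, and 22.5% fell and 22.7% rose in H209. In H82 these shares were 1.38% and 1.55%, and in SHP-77 3.21% and 1.98%. NRXN3, a presynaptic neurexin listed only for the ISL1-high lines, went from 169, 167 and 192 CPM to 88.3, 94.2 and 85.1 CPM in H187 (-0.98 ± 0.05) and from 53.8, 55.7 and 57.4 CPM to 23.8, 23.4 and 24.7 CPM in H209 (-1.22 ± 0.05). TENM4, a teneurin, fell in all its listing lines: by 1.37 in H187, by 0.99 in H209 and by 0.72 in SHP-77 on the log2 scale. TENM3 fell from 15.1 ± 1.42 to 6.50 ± 0.272 CPM in SHP-77 (-1.21 ± 0.08), from 437 ± 21.2 to 346 ± 11.1 CPM in H187 and from 110 ± 2.49 to 61.3 ± 2.22 CPM in H209. The median span of the listed members of this list on the genome was 339 kb in H187 and 342 kb in H209, against 28.8 kb and 24.4 kb for all listed on/off genes.

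On/off genes of the longest span had the lowest median change in all 4 lines. On/off genes spanning 300 kb or more had a median log2 change of -0.50 in H187, with 114 of 157 (72.6%) past the threshold as lower, and -0.51 in H209, with 109 of 148 (73.6%). In H82 the median was -0.20 (29 of 124 lower, 23.4%) and in SHP-77 it was -0.23 (64 of 162 lower, 39.5%). Genes of this span that were listed for all lines had medians of -0.35, -0.39, -0.16 and -0.17 in H187, H209, H82 and SHP-77. Their shares past the threshold as lower were 79.1%, 81.4%, 21.5% and 47.7% in the same order. These shares were above those of the on/off genes in H187, H209 and SHP-77 and below in H82. On/off genes under 10 kb had medians of 0.04, 0.10, 0.11 and 0.04. Called on/off genes that fell had a median span of 203 kb in H187 and 147 kb in H209, against 19.4 kb and 18.9 kb for those that rose. SGCD, a sarcoglycan gene of 441 kb, went from 2.75, 2.78 and 2.97 CPM to 0.533, 0.219 and 0.351 CPM in H187 (-2.97 ± 0.26, adjusted p = 3.6e-08) and from 4.38 ± 0.54 to 0.576 ± 0.0576 CPM in H209 (-2.91 ± 0.21). In H82 SGCD was higher to begin with and fell less, from 27.6 ± 0.672 to 21.7 ± 1.75 CPM (-0.34 ± 0.06, adjusted p = 0.0044). PARD3B, a cell polarity gene of 1074 kb, fell by 1.97 in H187 and by 2.11 in H209 and was 2.01 CPM under DMSO and 2.07 CPM under lurbinectedin in H82 (adjusted p = 0.91). LINGO2, a leucine-rich repeat receptor of 1276 kb, fell by 1.73 in H187, by 2.15 in H209 and by 0.84 in SHP-77.

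**Figure D4:**
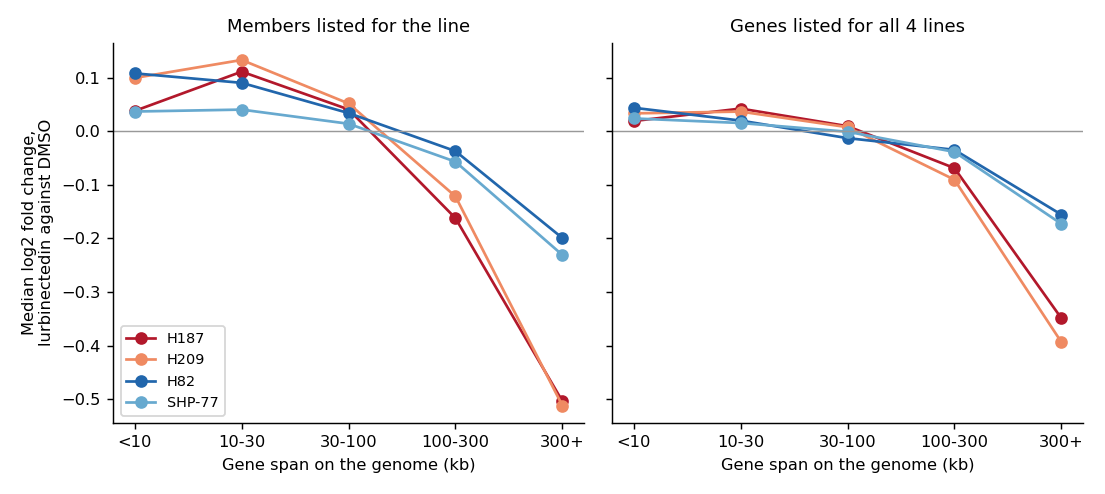
Median log2 fold change of lurbinectedin against DMSO (y axis) for genes grouped by their span on the genome in kb (x axis), with 1 line per cell line, for on/off genes listed for the line (left) and genes listed for all 4 lines (right). The medians are lowest at 300 kb or more in every line, at -0.50 in H187 and -0.51 in H209 for on/off genes of 300 kb or more, and at -0.20 in H82 and -0.23 in SHP-77.

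Stress, cell cycle and cell death genes had members that rose in the ISL1-high lines and members that did not. Of the cell cycle inhibitors and p53 targets, 1 of 4 listed rose in H187 and 2 of 5 in H209. Of the BCL2 family and death receptors, 1 of 5 rose and 1, BIK, fell in H187, and 2 of 7 rose and 1, GSDME, fell in H209. The BIK call was lost in some fits that left out a library, with adjusted p up to 0.157 by edgeR. The shares over all genes were 12.2% rising and 12.7% falling in H187, and 22.7% and 22.5% in H209. With so few genes, nothing is read from these list counts. ULBP1, a stress ligand of the natural killer cell receptor NKG2D, went from 5.44, 5.61 and 5.64 CPM to 15.7, 13.6 and 13.0 CPM in H187 (1.34 ± 0.10, adjusted p = 1.9e-09) and from 10.1, 8.47 and 7.94 CPM to 20.4, 18.6 and 22.0 CPM in H209 (1.21 ± 0.08, adjusted p = 8.3e-17). In H82 ULBP1 was 1.18 ± 0.0684 CPM under DMSO and 1.01 ± 0.096 CPM under lurbinectedin (adjusted p = 0.62). GADD45B, a stress-inducible growth arrest gene, went from 2.17 ± 0.203 to 4.67 ± 0.86 CPM in H187 and from 9.54 ± 1.15 to 29.8 ± 0.465 CPM in H209, and was 4.94 ± 0.328 and 5.06 ± 0.555 CPM in SHP-77. The arms did not overlap for ULBP1 and GADD45B in the ISL1-high lines. HRK, a BH3-only activator of apoptosis, rose from 6.79 ± 0.327 to 10.6 ± 0.798 CPM in H187 and from 5.85 ± 1.11 to 20.4 ± 1.12 CPM in H209, and was 7.04 ± 0.282 and 7.22 ± 0.609 CPM in SHP-77. CDKN1A rose from 50.7 ± 1.61 to 98.7 ± 2.86 CPM in H209 (0.96 ± 0.04, adjusted p = 2.2e-25) and by 0.19 ± 0.04 in H187, and was 130 ± 4.95 and 131 ± 3.58 CPM in SHP-77. BEST1, a chloride channel gene listed only for H187 and H209, rose by 1.09 and by 2.01 on the log2 scale in those lines. In the ISL1-low lines OLFML3 rose from 1.51 ± 0.154 to 2.63 ± 0.181 CPM in H82, with an adjusted p of 0.012 that reached 0.07 without lurbinectedin library 1 and 0.056 without library 3, and CNTN5, an axonal contactin, fell from 1.60 ± 0.146 to 0.649 ± 0.17 CPM in H82 (-1.29 ± 0.23) and from 3.85 ± 0.428 to 2.02 ± 0.161 CPM in SHP-77.

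Several leading genes of the class patterns changed by 0.28 or less on the log2 scale between treatments. SOX1 went from its DMSO level by -0.22 in H209 on the log2 scale and by 0.00 in H187 (adjusted p = 0.98), CDH1 by -0.14 in H209 and by 0.00 in H187 (adjusted p = 0.97), and ESRP1 by 0.28 in H209 and -0.08 in H187 (adjusted p = 0.14). The H209 changes of SOX1, CDH1 and ESRP1 were small but past the threshold. MYC was -0.07 in H82 (adjusted p = 0.35) and -0.08 in SHP-77 (adjusted p = 0.29), and SERPINF1 was -0.01 in H82 and -0.03 in SHP-77. Other leading genes were past the threshold in both H187 and H209, among them SLFN11, which rose, and GHRH, which fell. Among genes listed only for H187 and H209, 36 rose and 40 fell in H187, and 53 rose and 45 fell in H209, of 344. In either direction this was 22.1% in H187 and 28.5% in H209, against 23.9% and 34.9% of all listed on/off genes. Over all genes 12.2% rose and 12.7% fell in H187, and 22.7% rose and 22.5% fell in H209. Among genes listed only for H82 and SHP-77, 8 rose and 3 fell in H82, and 3 rose and 9 fell in SHP-77, of 176. In either direction this was 6.25% in H82 and 6.82% in SHP-77, against 4.46% and 6.51% of all listed on/off genes. Over all genes 1.55% rose and 1.38% fell in H82, and 1.98% rose and 3.21% fell in SHP-77.

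In every level bin from 1 CPM upward on/off genes passed the threshold more often than genes listed for all lines, and below 1 CPM this held in H209 alone. At 30 CPM or more the share was 51.9% against 30.2% in H187, 71.9% against 58.7% in H209, 9.48% against 2.71% in H82 and 19.3% against 6.47% in SHP-77. At 10 to 30 CPM it was 38.3% against 25.6%, 57.6% against 44.3%, 10.8% against 4.50% and 13.5% against 4.81%. At 3 to 10 CPM it was 27.2% against 17.0%, 36.7% against 30.9%, 4.42% against 1.34% and 5.02% against 2.43%. At 1 to 3 CPM it was 12.3% against 7.65%, 19.0% against 15.9%, 1.47% against 0.788% and 1.39% against 0.685%. Below 1 CPM the shares were 7.07% and 7.31% in H187, 13.9% and 8.99% in H209, 0.334% and 0.489% in H82 and 0.562% and 1.18% in SHP-77. When genes of at least 10 CPM were divided by level and span together, a division added after the data were seen, the on/off share was the higher one in 24 of 24 bins. The difference at matched level was not tested.

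**Figure D5:**
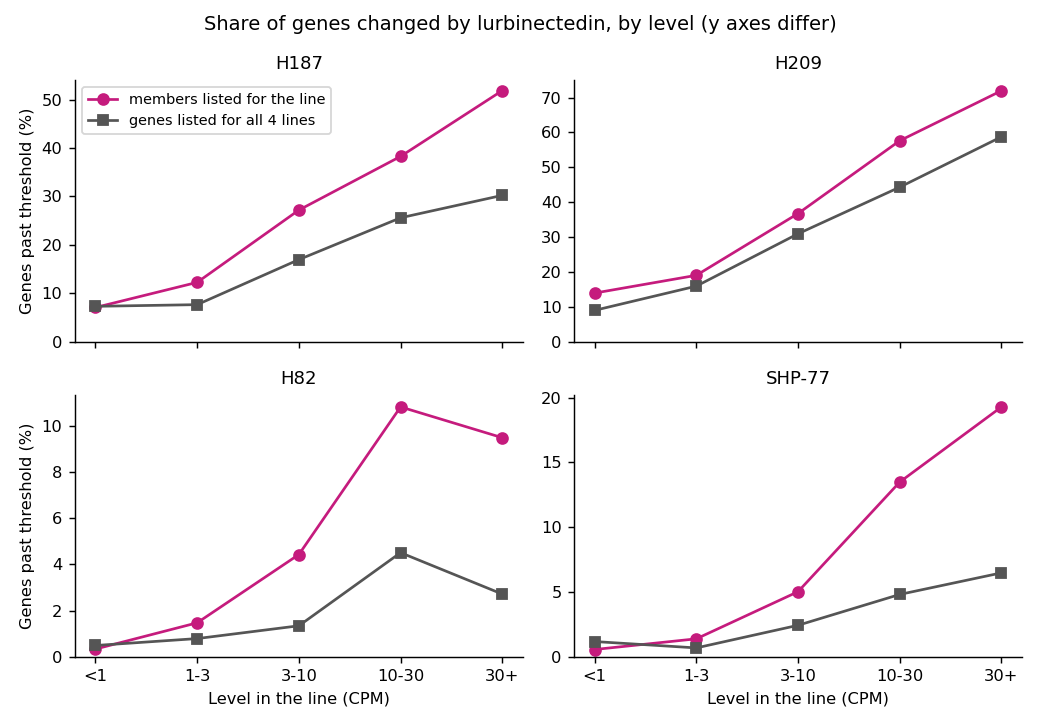
Share of genes past the threshold for lurbinectedin against DMSO (y axis, percent, with a different scale in each panel) by level in the line (x axis, CPM), for on/off genes listed for the line (circles) and genes listed for all 4 lines (squares). At 1 CPM or more the circles lie above the squares in all 4 panels, for example 51.9% against 30.2% in H187 at 30 CPM or more.

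The changes in H187 and H209 overlapped in part. Of 1552 on/off genes listed for both, 385 were called in H187 and 565 in H209, and 250 in both, which is 64.9% of the first and 44.2% of the second. Of the 250, 95 rose in both, 141 fell in both and 14 moved in opposite directions. In H82 and SHP-77, 11 of 742 genes were called in both, 1 rising and 10 falling. Both overlaps were counted for on/off genes only and not over all genes. They are therefore not read as particular to on/off genes. For the 14, chosen for their opposite calls in the same libraries, the difference between the responses (H209 minus H187) is given as a description, from a line by treatment term fitted over the 13042 genes listed for both lines, of which 10.4% were past the threshold. RUNX1, a transcription factor of blood and epithelial development, went from 329, 341 and 358 CPM to 292, 305 and 292 CPM in H187 and from 112, 116 and 120 CPM to 155, 158 and 154 CPM in H209, a difference in response of 0.64 ± 0.05 (log2 ± SE). HOXB5 fell from 126.1 to 100.9 CPM in H187 and rose from 31.36 to 45.77 CPM in H209, a difference of 0.87 ± 0.06. HOXB2 fell from 112.9 to 91.24 CPM in H187 and rose from 51.03 to 58.76 CPM in H209, and HOXD10 went the other way, from 3.279 to 4.487 CPM in H187 and from 49.25 to 38.95 CPM in H209. HOXB9 rose in both, from 4.71, 5.93 and 5.79 CPM to 23.2, 23.4 and 24.4 CPM in H209 and from 17.3 ± 1.04 to 21.4 ± 1.39 CPM in H187, and rose by 0.20 in SHP-77, a call lost in 5 of the 6 fits that left out a library.

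The depth behind these values was even. The 12 lurbinectedin libraries held 24178459 to 33510971 counts in the class table, and the libraries of the line tables held 24226553 to 36415190. The 160491 lurbinectedin count values shared by the class and line tables were identical. CPM was scaled within each table, so a lurbinectedin level quoted beside DMSO can differ slightly from the level quoted between lines. The submitters call the replicates biological triplicates, and every pair of libraries in a group differed by more than sampling noise.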

How the data were processed

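RNA had been extracted with RNeasy Plus from cultures in RPMI-1640 and libraries made with the Illumina Stranded Total RNA Prep with Ribo-Zero Plus, per the labels' protocols. The authors deposited raw read counts per gene for each library, and the submitters' processing notes name STAR 2.7.10a, featureCounts, Subread 2.0.3, edgeR 4.2.0 and hg38. The gene annotation, strand setting and low-count filter are not given in the sources used here. Without a stated strand setting, reads of overlapping and antisense genes cannot be told apart. The authors also deposited log2 CPM values and log2 fold changes, which were not used. The deposited p-values and FDR of the authors entered only as an alternative count of calls. A deposited score, the authors' signed fold change, was not used, and the deposited gene length served for levels per kb.

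Counts were fitted with edgeR 4.0.16 (R 4.3.3): TMM scaling, filterByExpr (minimum count 10, minimum total 15, which removed no gene), the quasi-likelihood test over all genes of a table and Benjamini-Hochberg adjustment at 0.05. The class fit used 12 lurbinectedin libraries with 1 mean per line, and each line fit used 6 libraries. Counting intervals are exact Poisson at 95%, floors are 3 counts over the libraries of a line, and both cover counting error only. The scripts were tested on simulated counts. DESeq2 1.42.0, other scaling and filters, a replicate block and leaving out each library were alternatives. The response term between H187 and H209 and the bins of level and span were added after the data were seen. Genes placed at several loci were left out of spans and neighbour runs.

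The on/off genes and the 28 gene lists were chosen with earlier results of these data known, so no adjusted p over a list alone is given. Named genes were the 12 with the highest level per kb in the lower listing line for each class pattern, 4 per other pattern, up to 4 per list by class difference, 4 per direction for each treatment and within-class comparison, the 10 most like ISL1, and ISL1, NEUROD1, MYC, MYCN and SLFN11. The deposited tables give no biotype, so all genes were eligible. Other named genes were chosen after their values were seen, among them OAS3, IFIH1, MX1, CMPK2, TENM4, PAX9, RUNX1, the HOXB genes and the genes of the chromosomal stretches.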

Additional observations from a re-analysis of the deposited data

Results flagged for a closer look

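For 14 on/off genes listed for both H187 and H209, lurbinectedin moved the level past the threshold in opposite directions. The differences between the responses (H209 minus H187, log2 ± SE, from edgeR's line by treatment term) are descriptions, since the genes were chosen for these opposite calls in the same libraries. The response was higher in H209 for PAX9, a transcription factor of foregut and skeletal development, by 1.129 ± 0.059, for RUNX1 by 0.6415 ± 0.053, and for 4 HOXB genes: HOXB5 by 0.873 ± 0.062, HOXB6 by 0.6727 ± 0.10, HOXB2 by 0.5178 ± 0.062 and HOXB4 by 0.4842 ± 0.10. It was also higher in H209 for PLEKHG1 by 0.5512 ± 0.084, RPS6KA2 by 0.4055 ± 0.079, ZNF750 by 0.3575 ± 0.074, C21orf91 by 0.2615 ± 0.055 and THCAT155 by 1.745 ± 0.37. It was lower in H209 for HOXD10 (-0.783 ± 0.13), MUC1 (-0.4136 ± 0.085) and SDC2 (-0.337 ± 0.057). PAX9 went from 321.3 ± 3.94 to 299.3 ± 2.20 CPM in H187 and from 13.0 ± 0.266 to 26.36 ± 0.0525 CPM in H209 (SD, n = 3). The fall of PAX9 in H187 was small (-0.10, adjusted p = 0.034 by edgeR) and lost its call when a library was left out in 4 of 6 fits, with adjusted p up to 0.14, and the rise of HOXD10 in H187 lost its call in 3 of 6. Genes of the HOXB cluster are neighbours, so their values are not independent of each other.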

How the results depend on the processing

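The class difference gave 2564 on/off genes past the threshold, 2551 with DESeq2, 2298 with a log2 fold change of at least 1 asked for, 2518 to 2551 with a library left out and 1206 by the authors' deposited FDR. With that size asked for, the count was 769 between H209 and H187 (1233 without it), and for lurbinectedin it was 48 rather than 495 (H187), 88 rather than 822 (H209), 2 rather than 66 (H82) and 4 rather than 128 (SHP-77). In H82 it was 110 by the authors' deposited FDR and 13 to 137 with a library left out, and by DESeq2 46, of which 39.1% were higher against 51.5% by edgeR. With a library left out the other counts ran from 88 to 118 in SHP-77, from 700 to 770 in H209, from 349 to 429 in H187, from 1187 to 1237 between H209 and H187 and from 602 to 625 between SHP-77 and H82. When a gene was called off only at 10 counts or fewer in each library, 228 rather than 344 genes were on in H187 and H209 alone and 116 rather than 176 in H82 and SHP-77 alone. Replicate numbers did not pair the libraries (same-number correlations of -0.211 to 0.182), and a fit with the replicate block called 101 in H82, 112 in SHP-77, 799 in H209 and 425 in H187. No value among the named genes reversed. Under other settings or left-out libraries, treatment calls of named genes were lost in 45 of 148 values in H82, 54 of 265 in SHP-77, 53 of 599 in H187 and 54 of 937 in H209. Listed genes reached down to 0.199 CPM and unlisted genes up to 1.29 CPM, so the state of the weakest genes is uncertain at this depth.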

Other observations

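Lineage transcription factors that were on/off genes fell under lurbinectedin in the ISL1-high lines more often than they rose: 4 of 6 listed in H187 fell and none rose, and 5 of 9 fell and 2 rose in H209, against 0 of 8 in either direction in H82 and 1 fall of 6 in SHP-77. With a library left out, 2 to 4 fell in H187 and 4 or 5 in H209: without DMSO library 1 or lurbinectedin library 2 of H187 both NEUROG1 and NEUROG2 lost their calls, and NEUROD1 in H209 lost its call in 4 of 6 such fits. The background shares of falling genes are those given for each line above, and the difference between lines was not tested. NEUROG1, a proneural factor, went from 43.97 ± 0.445 to 28.22 ± 1.90 CPM in H209 (SD, n = 3), a log2 change of -0.64 ± 0.05 (adjusted p = 7.6e-15 by edgeR). NEUROG1 was low in H187, at 1.87 and 1.21 CPM, and its call there (adjusted p = 0.042) was lost in 4 of 6 fits that left out a library. MYCN went from 80.79 ± 2.50 to 61.81 ± 3.34 CPM in H187 (-0.39 ± 0.05, adjusted p = 3.1e-06). NKX2-1 fell in both lines, from 460.8 ± 29.6 to 393.7 ± 18.1 CPM in H187 and from 131.4 ± 4.602 to 102.8 ± 1.64 CPM in H209.

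Ion channel genes moved in both directions, with 2 rises and 11 falls among 34 in H187 and 7 rises and 14 falls among 32 in H209. With a library left out there were 1 to 3 rises and 7 to 9 falls in H187, and 6 or 7 rises and 12 to 16 falls in H209. The shares over all genes, here and for the next list, were 12.2% rising and 12.7% falling in H187, and 22.7% and 22.5% in H209. Antigen presentation genes had 4 rises among 8 in H187, namely HLA-DQB1, ERAP2, ULBP1 and ULBP2, and 1 among 7 in H209. MGMT, which removes alkyl groups from guanine, went from 3.48 ± 0.302 to 1.728 ± 0.0767 CPM in H187 (-1.01 ± 0.17, adjusted p = 0.00012 by edgeR), and its smaller fall in H209 (-0.63 ± 0.23, adjusted p = 0.025) lost its call in 3 of 6 fits that left out a library, with adjusted p of 0.057 to 0.155. These genes were chosen after their values were seen.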
